A study of Mus musculus with 9 samples.

Results

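The genes described here are 10 genes of the interleukin-6 (IL-6) cytokine family and of the STAT3 pathway that its receptors use, taken by their symbols from a table of 54307 genes. They are 4 secreted ligands (Il6, Lif, Il11 and Clcf1), 4 receptor chains (Il6ra, Osmr, Lifr and Il6st), the transcription factor gene Stat3 and the inhibitor gene Socs3. All 10 passed the filter on low values. The RNA came from C2C12, an established line of mouse myoblasts that form myotubes in culture, and each group had 3 libraries made after 48 h. The control group (NC) was C2C12 cells whose glucose concentration the sources used here do not state. The H group was treated with high glucose at 25 mmol/L, and the HL group with the same glucose and 200 nmol/L liraglutide, an analogue of glucagon-like peptide-1 that activates the GLP-1 receptor. H and HL therefore share the high glucose, and no group analysed here had liraglutide without it. The study used mannitol at 25 mmol/L as a negative control in its cell assays, but no mannitol group was among the sequenced samples. The labels do not state if each library had a culture of its own, so p-values here reflect the spread between the libraries alone, which may be technical.

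Cytokines of the IL-6 family are secreted proteins that share Il6st, a membrane chain that carries the signal into the cell. IL-6 and IL-11 first bind receptor chains of their own, whereas LIF and CLCF1 also use Lifr, and oncostatin M uses Osmr. The receptors activate JAK kinases, which phosphorylate STAT3, and STAT3 then enters the nucleus and raises the transcription of target genes, among them Socs3, whose protein shuts the signal off. Skeletal muscle is known to release IL-6 when it contracts, and LIF is known as a factor that makes myoblasts divide.

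Of the 10 genes, Il6 had the highest mean level in each group and Lifr and Il11 had the largest changes. Values are FPKM, the fragments of a transcript scaled to its length and to the mapped reads of the library, so levels can be compared between genes. Promoter sequences from RefSeq (build GRCm38.p6) matched 9 of the 10 genes, all but Clcf1. Those of 3 ligand genes and of Socs3 are shown first because the factors that bind such letters were measured in the same libraries, and because Socs3 is the classic target of STAT3. Each line gives, 5′ to 3′ on the strand of the gene, the 250 bases before the annotated start, with matches to the searched motifs in capitals. They lie at chr5:30012864-30013113 (plus strand) for Il6, chr11:4257318-4257567 (plus strand) for Lif, chr7:4778142-4778391 (minus strand) for the second of 2 annotated starts of Il11, and chr11:117969367-117969616 (minus strand) for Socs3.
Il6: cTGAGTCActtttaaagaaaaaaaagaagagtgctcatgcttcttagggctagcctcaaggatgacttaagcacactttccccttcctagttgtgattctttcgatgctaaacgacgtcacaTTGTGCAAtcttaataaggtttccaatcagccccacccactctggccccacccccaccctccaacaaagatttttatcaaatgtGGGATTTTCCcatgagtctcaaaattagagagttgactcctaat
Lif: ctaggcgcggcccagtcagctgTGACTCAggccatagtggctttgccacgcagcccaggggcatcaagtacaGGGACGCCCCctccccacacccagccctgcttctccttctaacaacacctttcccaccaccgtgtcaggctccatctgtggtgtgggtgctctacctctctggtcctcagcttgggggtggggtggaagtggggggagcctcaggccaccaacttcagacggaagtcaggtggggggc
Il11: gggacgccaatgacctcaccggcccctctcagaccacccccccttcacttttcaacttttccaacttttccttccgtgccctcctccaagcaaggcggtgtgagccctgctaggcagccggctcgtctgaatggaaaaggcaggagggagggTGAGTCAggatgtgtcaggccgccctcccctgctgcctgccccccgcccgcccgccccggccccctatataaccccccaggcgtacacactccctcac
Socs3: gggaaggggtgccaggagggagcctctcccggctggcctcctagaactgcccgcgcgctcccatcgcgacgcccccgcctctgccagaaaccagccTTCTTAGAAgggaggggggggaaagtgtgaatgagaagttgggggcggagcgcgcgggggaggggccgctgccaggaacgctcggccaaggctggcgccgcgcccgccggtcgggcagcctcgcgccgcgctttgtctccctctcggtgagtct

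The search took 300 bases, from 250 before to 50 after each start, on both strands, for the motifs AP-1 (TGANTCA), CRE (TGACGTCA), C/EBP (TTNNGNAA), STAT (TTCNNNGAA) and NF-kB. No 2 of the matches given here overlapped. Il6 held an AP-1 match that began at position -249 from the start, a C/EBP match at -128 and an NF-kB match at -44. Lif held an AP-1 match at -228 and an NF-kB match at -178. Il11 held an AP-1 match at -98 from its second start and none of the 5 motifs at its first. Socs3 held 1 match, to STAT, at -154. Osmr had an AP-1 match just past its start, Il6ra and Stat3 had C/EBP matches, and the windows of Lifr and Il6st held none of these letters. Of all 32851 promoters of the table, 7.81% held the AP-1 letters, 8.3% STAT, 8.46% NF-kB, 1.79% CRE and 40.7% C/EBP. A match is only a description of the letters.

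The libraries held an estimated 17.2 to 22.6 M fragments each, and the FPKM of a library summed to 649733 to 683362 in H, 698627 to 731929 in HL and 757000 to 765681 in NC. Mitochondrially encoded transcripts took 9.19% to 11.45% of the FPKM in HL, 7.24% to 9.47% in H and 6.48% to 7.28% in NC, so HL and NC did not overlap. The median SD between libraries, on the log2 scale, was 0.072 in NC, 0.087 in HL and 0.171 in H. Of 8 myoblast markers, 7 were at 1 FPKM or more in every library (all but Pax7), and their summed level was 452 to 466 in the NC libraries, 359 to 494 in H and 639 to 659 in HL. Des alone held 243 to 261 FPKM of that sum in NC, and single markers moved in opposite directions. In H the means of Myod1, Des, Cdh15, Vcam1 and Pax7 were below NC, and those of Myf5, Cdh2 and Itga7 were above it. Of 8 macrophage and blood cell markers, 2 (Cd68 and Csf1r) reached 1 FPKM in all H libraries and 1 (Cd68) in the other groups, with sums of 5.39 to 6.65 in the NC libraries, 106 to 169 in H and 19.4 to 20.4 in HL. Csf1r alone held 91.5 to 149 FPKM of that sum in H, whereas Tyrobp was listed at 0 in all 9 libraries and Ptprc, the pan-leukocyte marker, did not exceed 0.0219 FPKM. Of 5 endothelial markers, 1 (Cdh5) reached 1 FPKM in all H libraries, and their sum was 0.346 to 0.475 in the NC libraries, 1.57 to 4.1 in H and 1.11 to 1.19 in HL. What part these markers and the mitochondrial share have in the results below was not tested.

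Fold changes below are on the scale log2(FPKM + 0.1), which understates changes of low genes. Standard errors and adjusted p-values come from limma over 13674 tested genes. A gene was called at an adjusted p under 0.05 with an absolute log2 fold change over 1, the thresholds of the study's methods. In high glucose against control, 1 of the 10 genes was called higher (Lifr) and 1 lower (Il6), beside 10.3% of all tested genes called higher and 5.75% called lower. By adjusted p alone, 3 were higher (Lifr, Il11 and Socs3) and 1 lower (Il6), against 27.1% and 33.0% of all tested genes. The H and NC libraries did not overlap for 4 of the 10 (the same Lifr, Il11, Socs3 and Il6), against 65.5% of tested genes. The median log2 fold change of the 10 was 0.04, beside -0.04 for all tested genes.

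With liraglutide added, HL against H, none of the 10 genes was called higher and 1 was called lower (Il11), beside 3.55% and 5.83% of all tested genes. By adjusted p alone, limma found 0 higher and 3 lower (Il11, Clcf1 and Il6st), against 26.7% higher and 21.7% lower among all tested genes. Those 3 were also the genes whose libraries did not overlap, against 55.3% of tested genes. The median of the 10 was -0.05, beside 0.04 for all tested genes.

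In HL against NC, none was called higher and 1 lower (Il11), beside 6.3% and 2.41%. By adjusted p alone, 3 were higher (Lifr, Lif and Socs3) and 3 lower (Il11, Clcf1 and Il6st), against 21.6% and 27.2%. The groups did not overlap for 8 of the 10, all but Il6ra and Stat3, against 65.8% of tested genes. The median of the 10 was -0.13, beside -0.04. Each group enters 2 of the 3 comparisons, so their values are given side by side and are not independent of each other.

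**Figure D1:**
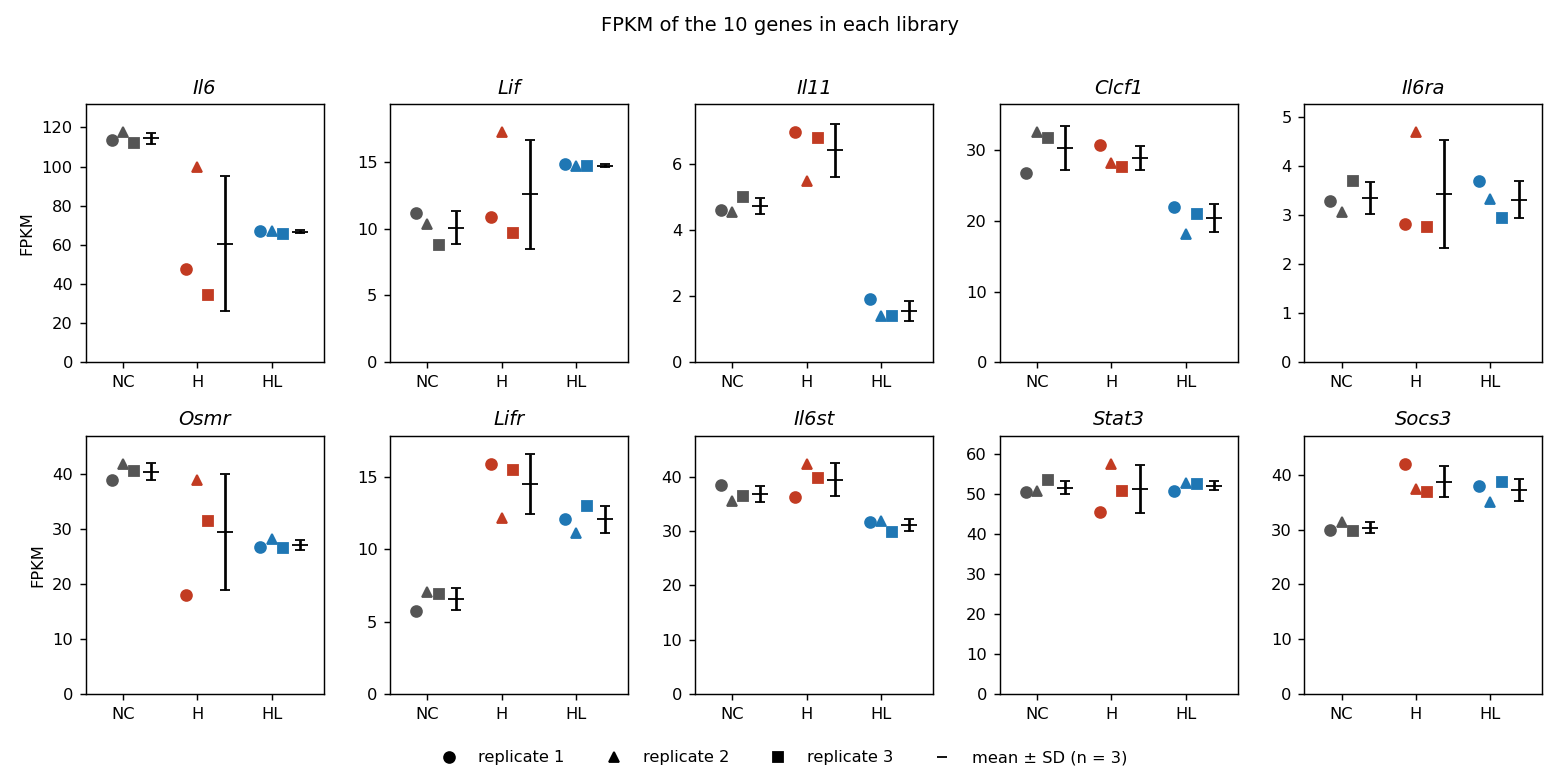
FPKM of each of the 10 genes (vertical axes, each from 0) in the 9 libraries, by group (horizontal axes), with the symbol giving the replicate number and the bar the mean ± SD of 3 libraries. The 3 HL values of Il11 lie below all others at 1.39 to 1.91 FPKM, and the 3 NC values of Lifr at 5.72 to 7.05 lie below all H and HL values, while Il6 spreads from 34.6 to 99.6 in H.

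Among the ligands, Il6, which encodes IL-6 itself, had 113.7, 117.6 and 111.8 FPKM in the NC libraries. In H it had 47.7, 99.6 and 34.6, and in HL 67.1, 67.1 and 65.7. Every H and HL library thus lay below every NC library, while H and HL overlapped, because H replicate 2 was above all HL libraries and the other two H libraries were below them. Il6 fell by 1.06 in H against NC on the log2 scale (SE 0.31, adjusted p = 0.0151), to 0.48 times the control. In bulk RNA, fewer cells that make a transcript and less of it per cell cannot be told apart. This call depended on single H libraries. Without H replicate 1 the log2 fold change was -0.96 (adjusted p = 0.065), without H replicate 3 it was -0.73 (adjusted p = 0.0356), and without H replicate 2 it was -1.49 (adjusted p = 1.18e-05). Over its 19 alternatives the adjusted p ran from 1.18e-05 to 0.065.

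For Il6 in HL against H the log2 fold change was 0.28 (95% interval -0.42 to 0.98, adjusted p = 0.473). Here H replicate 2 decided the value, since without it the change was 0.71 with an adjusted p of 0.00113, and without H replicate 3 it was -0.05. The adjusted p ran from 0.00113 to 0.888 over the alternatives. In HL against NC the log2 fold change was -0.78 (SE 0.31, adjusted p = 0.0633) although the groups did not overlap. That fit pools the spread of all 9 libraries. With only the HL and NC libraries in the fit the adjusted p was 3.06e-06, with variance weights per group 0.00208, without H replicate 2 0.000346 and without H replicate 3 0.02, at a fold change that was the same in each, and over all 19 alternatives it ran from 3.06e-06 to 0.135.

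Il11, a ligand known for its role in fibroblasts and bone, was the member with the largest change. It had 4.61, 4.54 and 4.99 FPKM in NC, 6.95, 5.49 and 6.78 in H, and 1.91, 1.39 and 1.39 in HL. The 3 groups did not overlap, with H highest and HL lowest. Il11 fell by 1.98 on the log2 scale in HL against H (SE 0.15, adjusted p = 1.39e-05), to 0.25 times the H level, and by 1.55 against NC (SE 0.15, adjusted p = 5.81e-05), to 0.34 times the control. Both calls held in all 18 alternatives that tested the gene. With a filter on a mean of 5 FPKM, Il11 was not tested. Its rise in H against NC was smaller, 0.43 (SE 0.15, adjusted p = 0.0314), and the adjusted p rose to 0.0517 to 0.0902 when H replicate 1, H replicate 3 or any 1 NC library was left out. Over the 18 alternatives that p ran from 0.00785 to 0.0902.

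Lif, which encodes leukemia inhibitory factor, had 11.1, 10.3 and 8.76 FPKM in NC, 10.8, 17.2 and 9.66 in H, and 14.8, 14.6 and 14.6 in HL. The HL libraries lay above all NC libraries and the highest of them was 1.01 times the lowest, whereas H held 1 library above HL and 2 within the NC range. Lif rose by 0.55 in HL against NC (SE 0.19, adjusted p = 0.0367), or 1.46 times. That p moved to 0.0715 to 0.119 without any 1 of the HL libraries or without NC replicate 2 or 3, and ran from 0.0014 to 0.119 over all alternatives. In H against NC the change was 0.28 (95% interval -0.15 to 0.70, adjusted p = 0.228), with 0.03 without H replicate 2 (adjusted p = 0.818) and 0.44 without H replicate 3 (adjusted p = 0.0694), and over the alternatives that p ran from 0.0541 to 0.818. In HL against H it was 0.27 (adjusted p = 0.262), with 0.52 without H replicate 2 (adjusted p = 0.00367) and 0.105 without H replicate 3 (adjusted p = 0.668), the lowest and highest p of its alternatives.

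Clcf1, a ligand of the ciliary neurotrophic factor receptor, had 26.8, 32.5 and 31.7 FPKM in NC, 30.8, 28.2 and 27.6 in H, and 21.9, 18.2 and 21.0 in HL. The HL libraries were below all others, and NC and H overlapped. Clcf1 fell by 0.50 in HL against H (SE 0.10, adjusted p = 0.00256) and by 0.57 against NC (adjusted p = 0.00121), changes that stayed past the adjusted p threshold in all 19 alternatives. Neither change passed the fold threshold.

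Of 8 other genes listed with the ligands, 3 were tested, and none was called in any comparison. Ctf1, which encodes cardiotrophin-1, had 2.51 to 4.11 FPKM over all libraries and Cntf, ciliary neurotrophic factor, 1.2 to 2.88. Cntf had an adjusted p of 0.0311 in H against NC, with a log2 fold change of -0.63 (SE 0.22). Osm, the ligand of Osmr, did not exceed 0.19 FPKM in any library, and Il27, Ebi3, Il31 and Ctf2 stayed below 1 FPKM.

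Among the receptor chains, Lifr, the LIF receptor, had 5.72, 7.05 and 6.93 FPKM in NC, 15.9, 12.1 and 15.5 in H, and 12.1, 11.1 and 13.02 in HL. All libraries with high glucose lay above all NC libraries, and H and HL overlapped. Lifr rose by 1.13 in H against NC (SE 0.13, adjusted p = 5.37e-05), or 2.19 times, and was called in all 19 alternatives. In HL against NC it was 0.87 higher (SE 0.13, adjusted p = 0.000506), or 1.83 times, which is under the fold threshold. The change in HL against H was -0.26 (95% interval -0.54 to 0.03, adjusted p = 0.119), and without H replicate 2 it was -0.38 (adjusted p = 0.0179, range over alternatives 0.0179 to 0.296).

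Osmr, the oncostatin M receptor chain, had 38.8, 41.8 and 40.5 FPKM in NC, 18.0, 38.9 and 31.5 in H, and 26.6, 28.2 and 26.5 in HL. All HL libraries lay below all NC libraries, while H reached from below HL into the NC range. The log2 fold change was -0.52 in H against NC (SE 0.22, adjusted p = 0.0688) and -0.57 in HL against NC (SE 0.22, adjusted p = 0.0592), so neither passed. With only the HL and NC libraries in the fit the latter had an adjusted p of 4.95e-05, and it ran from 4.95e-05 to 0.131 over the alternatives. Single H libraries decided these values. In H against NC the change of Osmr was -0.76 without H replicate 2 (adjusted p = 0.0082) and -0.21 without H replicate 1 (adjusted p = 0.0735), the lowest and the highest log2 value of its alternatives, whose adjusted p ran from 0.0082 to 0.247. In HL against H the change was -0.05 (adjusted p = 0.872), -0.37 without H replicate 1 (adjusted p = 0.0101) and 0.18 without H replicate 2 (adjusted p = 0.438), with p-values from 0.0101 to 0.941 over the alternatives.

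Il6st, the chain that all these receptors share, had 38.6, 35.6 and 36.4 FPKM in NC, 36.3, 42.5 and 39.8 in H, and 31.7, 31.8 and 29.8 in HL. The HL libraries were the lowest, and NC and H overlapped. Il6st fell by 0.34 in HL against H (SE 0.07, adjusted p = 0.00306), in all 19 alternatives past the adjusted p threshold, and by 0.24 against NC (adjusted p = 0.0156). The last p was 0.0589 without HL replicate 3, 0.0636 without NC replicate 1 and 0.136 after rescaling to TPM, the highest of its alternatives, of which the lowest was 0.00178. In H against NC the change was 0.10 (adjusted p = 0.244). It passed without H replicate 1 (0.16, adjusted p = 0.0496) and after rescaling (0.29, adjusted p = 0.00842), and it was 0.044 without H replicate 2 (adjusted p = 0.556, the highest of the alternatives).

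Il6ra, the IL-6 receptor chain, was the lowest of the 10 genes in NC and H, with 3.30, 3.06 and 3.70 FPKM in NC, 2.82, 4.70 and 2.77 in H, and 3.69, 3.33 and 2.94 in HL. The 3 groups overlapped, and the 95% interval of the log2 fold change was -0.46 to 0.44 in H against NC and the same in HL against H. Of 5 other receptor chains, 2 were tested and none was called. Il11ra1, the receptor chain of IL-11, had 6.06 to 9.10 FPKM, with log2 fold changes of -0.17, -0.02 and -0.20 in the 3 comparisons (H against NC, HL against H, HL against NC) and adjusted p of 0.301 or more. Cntfr had 0.558 to 1.13 FPKM and was 0.61 higher in HL against H (SE 0.22, adjusted p = 0.0466). It reached 1 FPKM only in the HL libraries, so it passed the filter on low values through the group where it was highest. That p is therefore given as a description alone. Il11ra2 and Il31ra did not exceed 0.0459 FPKM.

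**Figure D2:**
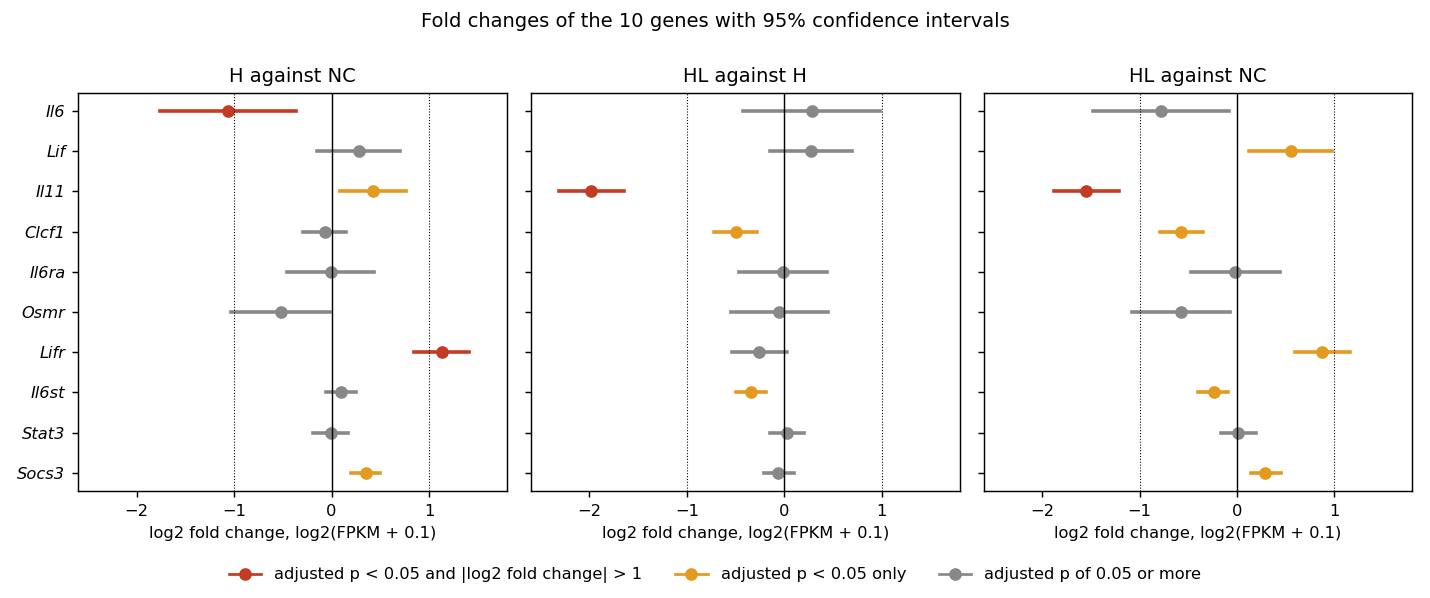
Log2 fold changes of the 10 genes (points, horizontal axes) with 95% confidence intervals (lines) from limma in the 3 comparisons, with dotted lines at the fold threshold. Red marks genes past both thresholds (Il6 and Lifr in H against NC, Il11 in both comparisons of HL), orange an adjusted p under 0.05 alone, and the long lines of Il6 and Osmr show their spread.

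Downstream of the receptors, Stat3 had 50.6, 50.8 and 53.5 FPKM in NC, 45.7, 57.7 and 50.9 in H, and 50.9, 52.9 and 52.6 in HL. The groups overlapped, and the 95% interval of the change was -0.19 to 0.17 in H against NC, -0.15 to 0.20 in HL against H and -0.16 to 0.19 in HL against NC. Socs3, the feedback inhibitor, had 29.9, 31.5 and 29.7 FPKM in NC, 42.1, 37.5 and 36.9 in H, and 38.05, 35.1 and 38.8 in HL. All H and HL libraries lay above all NC libraries, and H and HL overlapped. Socs3 rose by 0.35 in H against NC (SE 0.07, adjusted p = 0.00169), or 1.28 times, and by 0.29 in HL against NC (adjusted p = 0.00644). Both kept an adjusted p under the threshold in all 19 alternatives, while the change in HL against H was -0.06 (95% interval -0.21 to 0.10).

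In the order of levels within NC, Il6 (114 ± 2.93 FPKM, SD, n = 3) stood first, followed by Stat3 (51.6 ± 1.63), Osmr (40.4 ± 1.54), Il6st (36.9 ± 1.52), Socs3 (30.4 ± 0.969), Clcf1 (30.3 ± 3.10), Lif (10.1 ± 1.21), Lifr (6.56 ± 0.736), Il11 (4.71 ± 0.244) and Il6ra (3.35 ± 0.323). Only Socs3 and Clcf1 had overlapping ranges among neighbours in that order. In H, Il6 (60.6 ± 34.4) overlapped with Stat3 (51.4 ± 6.03), and neighbours also overlapped from Il6st (39.5 ± 3.08) through Socs3 (38.8 ± 2.86) and Osmr (29.4 ± 10.6) to Clcf1 (28.9 ± 1.68), and between Lifr (14.5 ± 2.08) and Lif (12.6 ± 4.06). In HL no neighbours overlapped, and Il11 (1.56 ± 0.299) stood last, below Il6ra (3.32 ± 0.375). Lifr stood below Lif in NC and HL, and in H the ranges of the pair overlapped.

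The spread within H differed between members. The highest H library held 2.88 times as much Il6 as the lowest, against 1.05 times in NC and 1.02 times in HL. For Osmr that ratio was 2.16, for Lif 1.78 and for Il6ra 1.70, whereas it was 1.11 for Clcf1 and 1.14 for Socs3. Only 3.07% of tested genes had a larger SD of log2 values in H than Il6, and 5.96% had a larger one than Osmr. H replicate 2 was the highest H library for 6 of the 10 genes (Il6, Lif, Osmr, Il6st, Il6ra and Stat3), beside 32.7% of all tested genes. It was the lowest for 2, Il11 and Lifr, beside 41.1% of all tested genes. The same library had the least Csf1r and Cd68 of the H group, and whether this bears on the members was not tested.

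**Figure D3:**
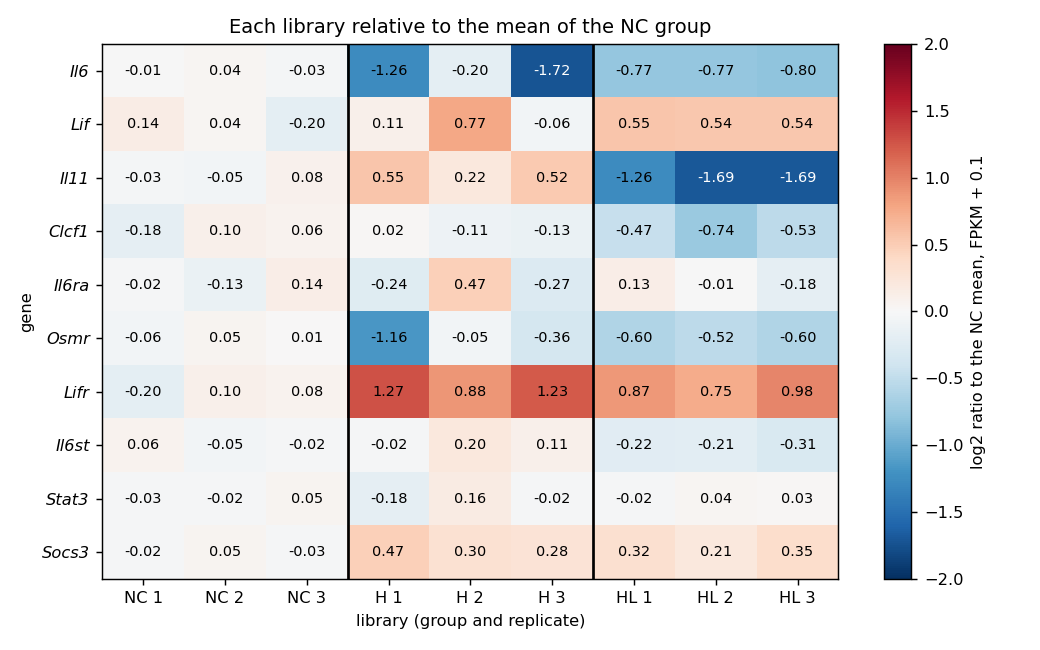
Log2 ratio of each library to the mean of the 3 NC libraries, on FPKM + 0.1, for the 10 genes (rows) in the 9 libraries (columns, split by group), with the value written in each cell and a colour scale from -2 to 2. Il6 is blue in H replicates 1 and 3 and pale in H replicate 2, while Il11 is dark blue in all 3 HL libraries and Lifr red in all 6 libraries with high glucose.

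Genes with the pattern most like the 3 called members, by Pearson r of log2(FPKM + 0.1) over the 9 libraries, are given as a description, since the points fall in 3 groups and share them. For Il6 they were Anxa8 (r = 0.981), Mgst1 (0.980) and Shc1 (0.980), of which Shc1 encodes an adaptor of receptor signaling and is among the pathway genes listed here. Shc1 had mean levels of 83.5 FPKM in NC, 71.4 in H and 73.6 in HL, so its pattern was like that of Il6 at a much smaller size. For Lifr they were Gm13415 (0.992), Synj2 (0.985) and 4930471E19Rik (0.985), and for Il11 N4bp1 (0.995), Gclm (0.992) and Zfp131 (0.986). Gclm, a subunit of the enzyme that starts glutathione synthesis, had 55.6, 65.2 and 26.3 FPKM on average in NC, H and HL.

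The wider pathway was described with 77 other genes in 6 lists, of which 66 were tested. Cebpb, Cebpd, Junb and Fos stand both among the STAT3 targets and among the factors of the Il6 promoter. In H against NC, 7 of the 66 were called higher and 5 lower (median -0.01), beside 10.3% and 5.75% of all tested genes. In HL against H, 2 were called higher and 2 lower (median -0.03), beside 3.55% and 5.83%. In HL against NC, 7 were called higher and 4 lower (median -0.02), beside 6.3% and 2.41%. The same shares of all tested genes apply to each list below.

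Among 13 tested JAK, STAT and adaptor genes, none was called in H against NC or in HL against H, and 1 (Stat6) was called lower in HL against NC. Jak1, the kinase that binds Il6st, had 53.2 to 57.2 FPKM over the 9 libraries, and its change in H against NC had a 95% interval of -0.11 to 0.10. Grb2, an adaptor to the RAS pathway, had 66.8 to 73.3 FPKM in the NC libraries, 91.6 to 103 in H and 60.5 to 76.6 in HL. Grb2 rose by 0.46 in H against NC (SE 0.09, adjusted p = 0.0018) and fell by 0.49 in HL against H (adjusted p = 0.00202). Stat6, the factor of interleukin-4 signaling, had 1.15, 1.75 and 2.23 FPKM in NC, 0.603, 1.43 and 0.932 in H, and 0.472, 0.815 and 0.426 in HL, a low level. Its change in HL against NC was -1.43 (SE 0.37, adjusted p = 0.0105), and it was not called with a pseudocount of 1. Stat6 passed the filter on low values only through NC and H libraries, since no HL library reached 1 FPKM. Its p and call are therefore given as a description alone.

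Of 14 other inhibitors, all tested, Socs1 alone was called in H against NC. Socs1, a relative of Socs3 that binds JAK kinases, had 1.86, 1.35 and 1.5 FPKM in NC, 3.99, 3.17 and 3.35 in H, and 3.59, 2.89 and 3.60 in HL. All libraries with high glucose lay above NC. Socs1 rose by 1.11 in H against NC (SE 0.16, adjusted p = 0.000283) and by 1.05 in HL against NC (SE 0.16, adjusted p = 0.000685), and neither change passed the fold threshold with a pseudocount of 1, nor the latter without NC replicate 2. The change in HL against H was -0.06 (adjusted p = 0.789). Cish, an inhibitor known from STAT5 signaling, was called lower in HL against H (-1.05, SE 0.37, adjusted p = 0.0436) and in HL against NC (-1.25, SE 0.37, adjusted p = 0.0212). Cish passed the filter on low values only through NC and H libraries, since no HL library reached 1 FPKM. Its p-values and calls are therefore given as a description alone. With 0.423 to 0.558 FPKM in HL and 0.666 to 1.91 in H, Cish was a low gene. The call against H held in only 6 of 17 alternatives, with an adjusted p of up to 0.143. It was lost without H replicate 2 or 3, without any 1 of the HL libraries and without NC replicate 2 or 3, and the call against NC was lost without NC replicate 1 or HL replicate 1 and held in 15 of 18 alternatives. The phosphatase genes Ptpn1 and Ptpn2, both among the 3 highest in level of the list, were lower by adjusted p alone in H against NC (-0.28 and -0.31) and in HL against NC (-0.42 and -0.29). Socs5, the other of these 3, had -0.26 in HL against H (adjusted p = 0.0234).

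Of 24 genes listed as STAT3 targets, 22 were tested, and they moved in both directions. In H against NC, 5 were called higher (Fos, Pim1, Bcl6, Serpina3n and Bcl2l1) and 5 lower (Hp, Birc5, Ccnd1, Timp1 and Bcl3), with a median of 0.05. Of all tested genes, 10.3% were called higher and 5.75% lower. The call of Bcl2l1 (1.01, SE 0.07) was lost with a pseudocount of 1 and without NC replicate 3 or H replicate 1. Its log2 fold change was 0.95 at the lowest. That of Serpina3n was lost with a pseudocount of 1 (0.71) and that of Bcl3 after rescaling to TPM (-0.98). Serpina3n, at 0.370 to 0.475 FPKM in NC, passed the filter on low values only through H and HL libraries, where it was higher. Its calls against NC are therefore given as a description alone. Pim1, a survival kinase, had 13.5 to 14.0 FPKM in the NC libraries, 66.0 to 93.2 in H and 43.0 to 45.6 in HL. It rose by 2.53 in H against NC (SE 0.11, adjusted p = 2.26e-07), or 5.80 times, fell by 0.86 in HL against H (adjusted p = 0.00023) and stayed 3.19 times the control in HL. Hp, the acute-phase protein haptoglobin, had 23.6 to 24.8 FPKM in the NC libraries, 2.56 to 6.31 in H and 4.27 to 5.30 in HL. Hp fell by 2.68 in H against NC (SE 0.27, adjusted p = 2.88e-05) and had a change of -2.37 in HL against NC (adjusted p = 0.000142). Timp1, a protease inhibitor and the most abundant gene of the list, had 907 to 942 FPKM in the NC libraries, 383 to 413 in H and 248 to 295 in HL. It fell by 1.23 in H against NC (SE 0.07, adjusted p = 6.77e-07) and by a further 0.52 in HL against H (adjusted p = 0.000217).

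In HL against H, the 2 STAT3 targets called, both higher, were Birc5 and Ccnd1, which are also genes of the cell cycle. Of all tested genes, 3.55% were called higher and 5.83% lower. Birc5, known as survivin, had 185 to 186 FPKM in the NC libraries, 30.8 to 44.0 in H and 103 to 114 in HL. It fell by 2.31 in H against NC (SE 0.11, adjusted p = 3.86e-07) and rose by 1.56 in HL against H (adjusted p = 1.01e-05). Ccnd1, cyclin D1, had 51.2 to 63.1 FPKM in H and 133 to 139 in HL, a rise of 1.28 (SE 0.07, adjusted p = 3.63e-06). In HL against NC, 5 targets were called higher (Fos, Serpina3n, Pim1, Saa3 and Bcl6) and 2 lower (Hp and Timp1), beside 6.3% and 2.41% of all tested genes. The call of Bcl6 there (1.01, SE 0.10) was lost with a pseudocount of 1 and without NC replicate 2 or 3 or HL replicate 1, with 0.91 at the lowest. That of Serpina3n was lost with a pseudocount of 1 (0.98). Vegfa, the second in level, had 141 to 194 FPKM over all libraries and an adjusted p of 0.325 or more in each comparison.

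Of 16 factors known to act on the Il6 promoter, all tested, 2 were called in H against NC, both higher, beside 10.3% of all tested genes. The median log2 fold change of the list was 0.41. By adjusted p alone 10 were higher and 1 (Nfkb1) lower, against 27.1% and 33.0% of tested genes. Fos and Fosb, which pair with JUN proteins on AP-1 sites, rose by 3.46 (SE 0.19, adjusted p = 7.07e-07) and by 4.39 (SE 0.16, adjusted p = 1.35e-07). Fosb had 3.13 to 3.62 FPKM in the NC libraries, 56.0 to 93.2 in H and 20.05 to 22.03 in HL, and fell by 1.77 in HL against H (adjusted p = 3.25e-05). Fos had 8.10 to 9.41 FPKM in the NC libraries, 68.5 to 126 in H and 85.6 to 99.2 in HL, with a change of -0.04 in HL against H (95% interval -0.46 to 0.38). The JUN genes of the list, Junb, Jund and Jun, were its most abundant members and were 1.58, 1.54 and 1.45 times as high in H as in NC (adjusted p = 0.00013, 0.00139 and 0.00198). Junb fell by 0.41 in HL against H (adjusted p = 0.00362). Of the 3 ligand genes whose printed promoters hold an AP-1 match, Il6 was lower in H, Lif did not pass the test and Il11 was 1.35 times as high. That rise of Il11 stayed past the adjusted p threshold in 11 of 18 alternatives. Whether the AP-1 factors bear on the levels of these ligand genes was not tested.

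**Figure D4:**
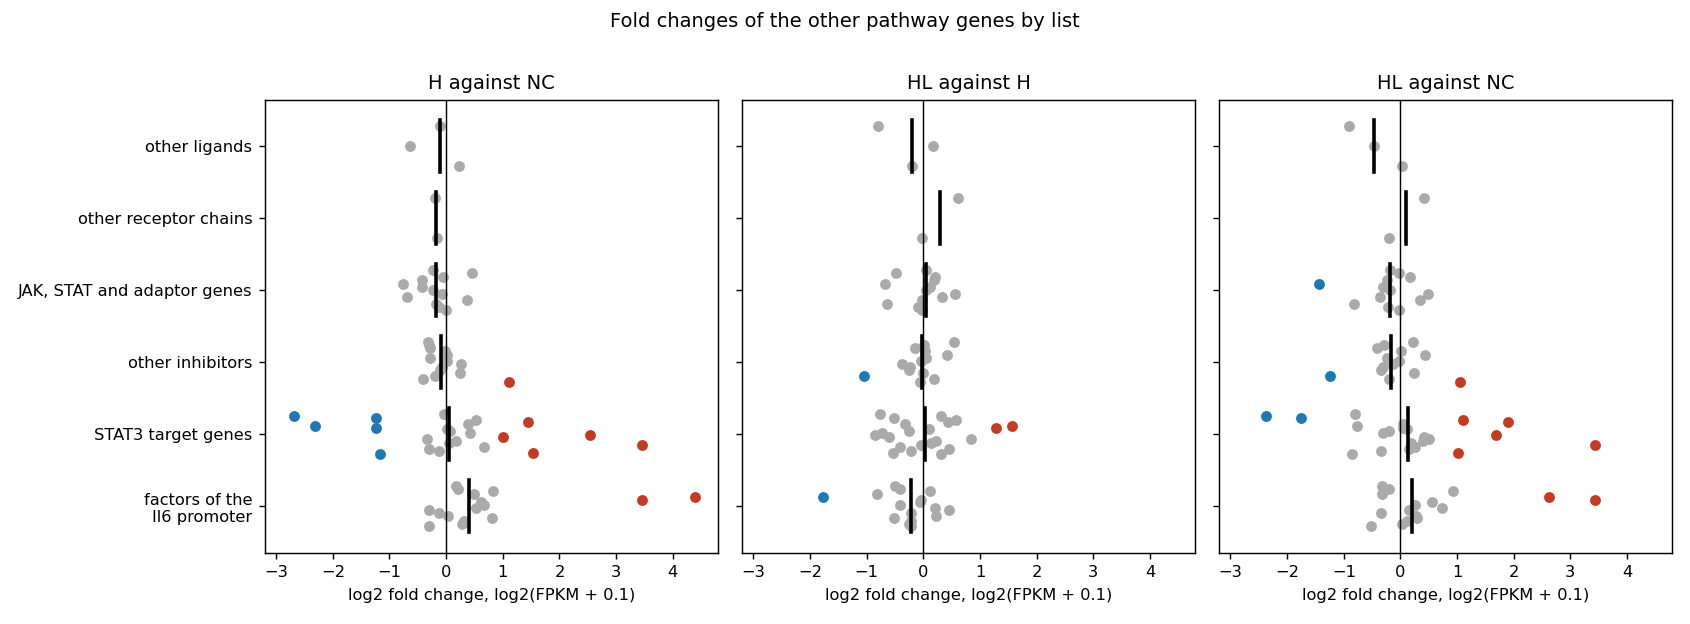
Log2 fold changes (horizontal axes) of the tested other pathway genes in 6 lists (rows) for the 3 comparisons, 1 point a gene in each list that holds it, red where called higher, blue where called lower, with a black line at the median of the list. Cebpb, Cebpd, Junb and Fos appear in both the STAT3 targets and the factors of the Il6 promoter. In H against NC the STAT3 targets spread from Hp at -2.68 to Fos at 3.46, and the factors of the Il6 promoter have Fosb at 4.39 and a median of 0.41.

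Scaling moved the balance of all calls. After rescaling each library to the same FPKM sum (TPM), the median change of all tested genes in H against NC went from -0.04 to 0.17, and the share of calls that were higher from 64.1% to 78.6%. In HL against H the median went from 0.04 to -0.07 and the share from 37.9% to 26.9%, and in HL against NC the median went from -0.04 to 0.06. On that scale Il6 had a change of -0.87 in H against NC (adjusted p = 0.0343), under the fold threshold, and Lifr 1.32 (adjusted p = 2.97e-05), and Il11 had -2.09 in HL against H (adjusted p = 1.55e-05).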

How the data were processed

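Messenger RNA of 9 C2C12 libraries, 3 each of NC, H and HL, was sequenced on an Illumina HiSeq instrument. Per the methods and the labels, the authors trimmed reads with fastp, aligned them with HISAT2 (version 2.1.0) and computed 1 FPKM value per gene and library with StringTie (version 1.3.3b). The table's name points to salmon, and the sources name different genomes, mm39 in the submitters' processing notes and human in the methods, while its identifiers are mouse Ensembl genes. No gene coordinates in that build are given. The deposited FPKM are normalized values, so no count test was run. All 9 value columns matched a library, and 51482 of the 54307 genes had a symbol.

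Genes at 1 FPKM or more in 3 or more libraries (13674) were tested with limma (version 3.58.1, statmod 1.5.0, R 4.3.3) on log2(FPKM + 0.1), with a variance trend and robust fitting, in a single model of the 9 libraries (6 residual degrees of freedom), with Benjamini-Hochberg adjustment within each comparison. The code was tested on simulated data. The depth of each library came from the spacing of the low FPKM of 5199 single-transcript genes, after taking 250 bases from each length. With this offset 99.6% to 99.9% of low values lay within 0.1 of a whole number of fragments. Summaries used Python 3.11.15, pandas 2.3.3, NumPy 2.4.6 and matplotlib 3.10.9.

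The members and lists were chosen with earlier results of these data known. The genes named are all members, and from each other list the 3 highest in mean level and up to 4 called genes with the largest change, plus the 3 genes most correlated with each called member. Bcl6, Bcl3, Bcl2l1, Ccnd1, Serpina3n, Saa3, Lcn2, Nfkb1 and the low ligands and receptor chains were named after their values were seen. Alternatives were other pseudocounts (1 and 0.01), filters, TPM or median scaling, variance models, a replicate block, a model of the compared groups alone, no fold threshold and each library left out. Of the genes this rule takes, 1 is not reported here. Protein sequences, splicing and protein assays were not analysed here.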

Additional observations from a re-analysis of the deposited data

How the results depend on the processing

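Of the members' log2 fold changes, Lifr in H against NC and Il11 in both comparisons with HL stayed called under every alternative that tested them, and with a mean of at least 5 FPKM, where Il11 was not tested, 0 members were called lower in HL against H and in HL against NC. The count of members called lower in H against NC, 1, became 0 after rescaling to TPM and ran from 0 to 1 when a library was left out, with 0 without H replicate 1 or 3. By adjusted p alone, 3 members were higher in H against NC, 3 higher in HL against NC, and 3 lower in each comparison with HL. Signs turned only for changes that did not pass. After rescaling to TPM these were Clcf1 (0.12), Il6ra (0.18) and Stat3 (0.18) in H against NC, Stat3 (-0.07) in HL against H, and Il6ra (0.079) in HL against NC, and after centring on the median Il6ra (0.012) and Stat3 (0.008) in H against NC and Il6ra (0.002) in HL against NC. With a library left out, the log2 fold change ran from -0.048 to 0.713 for Il6, from -0.367 to 0.185 for Osmr, from -0.136 to 0.236 for Il6ra, from -0.093 to 0.003 for Socs3 and from -0.056 to 0.112 for Stat3 in HL against H, from -0.252 to 0.12 for Il6ra and from -0.098 to 0.071 for Stat3 in H against NC, and from -0.093 to 0.066 for Il6ra in HL against NC. The causes were not tested. FPKM carry no read counts, so no counting interval is given for single values, and the depth limits genes near 1 FPKM most.

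Among the 66 other pathway genes, adjusted p alone gave 18 higher and 15 lower in H against NC, 12 and 21 in HL against H, and 17 and 25 in HL against NC. Of all tested genes, 27.1% were higher and 33.0% lower by that rule in H against NC. Those shares were 26.7% and 21.7% in HL against H, and 21.6% and 27.2% in HL against NC. For the 66 genes, a pseudocount of 1 gave 4 higher in H against NC, 1 lower in HL against H, and 4 higher and 2 lower in HL against NC. The 2 called lower in HL against H became 1 with a mean of at least 5 FPKM, with only the 2 groups compared, with variance weights and with the replicate block, and ran from 1 to 2 with a library left out. A mean of at least 5 FPKM gave 2 lower in HL against NC, and those called higher there ran from 4 to 7 with a library left out, the 4 without NC replicate 2.

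Over all tested genes, adjusted p alone gave 3711 higher and 4513 lower in H against NC, 3652 and 2967 in HL against H, and 2957 and 3717 in HL against NC. A mean of at least 5 FPKM gave 517 higher in H against NC, 255 higher and 270 lower in HL against H, and 306 and 150 in HL against NC. No filter on low values gave 2711 higher in H against NC, 1606 lower in HL against H and 622 lower in HL against NC. A pseudocount of 1 gave 256 higher in HL against H, and 446 higher and 198 lower in HL against NC. Genes called lower in HL against H ran from 444 to 801 with a library left out, 444 without H replicate 1 and 520 without H replicate 3, beside 797 with all.

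For libraries of different groups that share a replicate number, correlations of deviations from the group means were small. They ran from -0.037 to 0.091 over 9 pairs, with 0 above 0.1. Between NC and H, the same-number pairs had 0.057, 0.091 and 0.046, above all pairs of different number (-0.071 to 0.011). In pairs with HL, not every library correlated best with its own number. With the replicate block, 1 member was called higher and 1 lower in H against NC, 0 and 1 in HL against H, and 0 and 1 in HL against NC, as without it. The block brought Osmr past the adjusted p threshold in H against NC (-0.52, adjusted p = 0.0468) and in HL against NC (-0.57, adjusted p = 0.0415) and changed no other member's side of it.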

Other observations

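The levels of 3 further genes of the STAT3 list, known as acute-phase genes, were as follows. Saa3, a serum amyloid A gene, had 68.8, 64.1 and 70.4 FPKM in NC, 108, 167 and 52.1 in H, and 136, 140 and 162 in HL. Its H libraries thus reached from below NC to above HL, with H replicate 2 highest and H replicate 3 lowest, as for Il6. Saa3 was 1.10 higher on the log2 scale in HL against NC (SE 0.34, adjusted p = 0.0256 by limma), and it was called in 12 of 19 alternatives. The call was lost with no filter on low values and without any 1 of the NC or HL libraries, with an adjusted p of up to 0.0708. Serpina3n, a serine protease inhibitor, had 0.397, 0.370 and 0.475 FPKM in NC, 1.08, 2.03 and 0.972 in H, and 1.54, 1.95 and 1.92 in HL, and was 2.72 times as high in H as in NC. No NC library reached 1 FPKM, so the gene passed the filter on low values only through H and HL libraries, and its changes against NC are a description alone. At these low levels the fold depends on the pseudocount, and with a pseudocount of 1 the log2 fold change of Serpina3n was 0.71 in H against NC and 0.98 in HL against NC, neither of them called. Lcn2, lipocalin 2, had 6.68 to 8.52 FPKM in the NC libraries, 8.44 to 12.9 in H and 7.60 to 8.76 in HL, so the groups overlapped, and it was called in no comparison.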
